A study of Mus musculus with 6 samples.

Results

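Fgf5, Otx2, Pou3f1 (Oct6), Zic2, Zic5 and Sox4 are genes of the formative and primed epiblast, the pluripotent states that follow naive pluripotency. The 6 genes were chosen by name, with earlier results of these data known. Each was found in the expression table under a symbol of its own, so they are 6 of 21639 gene entries. RNA-Seq was available for 3 mouse ESC lines on 2 days, D0 and D3, with 1 library for each line and day. All lines were made in KH2 ESCs, and the labels give the strain as V6.5 (129SvJaexC57BL/6). The H2AZ WT and H2AZ-AP3 lines carried a doxycycline-inducible, YFP-tagged transgene under a CMV promoter, delivered by lentivirus, and each was a FACS-sorted YFP+ pool. The transgene of the H2AZ-AP3 line had 3 acidic patch residues of H2A.Z exchanged for those of H2A. Both transgenic lines also expressed a hairpin against the 3′ UTR of endogenous H2A.Z, and the H2AZ KD line is labelled as the knockdown. The labels call all samples ES cells, whereas the methods of the study describe D3 as embryoid bodies (EBs) formed without LIF. The ESCs had left their feeder fibroblasts for the last passage.

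H2A.Z is a histone variant whose extended acidic patch, a charged surface of the nucleosome, was altered in this study. Naive ESCs resemble the pre-implantation epiblast. On leaving that state, cells switch on OTX2, a homeodomain protein that with OCT4 occupies a new set of enhancers, and the secreted growth factor FGF5, the classical marker of the post-implantation epiblast. POU3F1, ZIC2 and ZIC5 are transcription factors of the same transition and later of neural tissue, and SOX4 is an SRY-related HMG-box factor found in many embryonic progenitors.

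H2afz, the gene targeted by the hairpins, did not separate the lines in the way their labels say. At D0 it stood at 279 RPKM in H2AZ WT, 343 RPKM in H2AZ KD and 304 RPKM in H2AZ-AP3. At D3 it stood at 258, 236 and 394 RPKM in the same order. The transgene's coding sequence may be counted in this entry in the lines that carry it, which was not tested. The paper reports depletion of endogenous H2A.Z by qRT-PCR and western blot. Because H2afz was not lowest in H2AZ KD at D0, the KD samples are called the libraries labelled H2AZ KD. Estimated depths were 18.6 to 28.2 M mapped reads, and 11644 to 11802 entries reached 1 RPKM. The ESC markers found (Pou5f1, Zfp42 and Sox2) lay between 109.7 RPKM, for Sox2 in H2AZ-AP3 at D0, and 540.5 RPKM. With 1 library per condition, differences between lines on a single day carry no test. Tests were made only of the change from D0 to D3 over the 3 lines together and of the lines averaged over the days. The 95% intervals given here cover counting error only. They rest on reads estimated from depth and exon length, and PCR copies were not separable from new molecules.

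The genes lie on 4 chromosomes (mm9). Fgf5 spans chr5:98683203-98706049 on the plus strand in 3 exons. Otx2 spans chr14:49277859-49282547 on the minus strand. It has 8 annotated transcripts, and which of them its entry counts was not checked. Pou3f1 (chr4:124334889-124337899, plus strand) and Sox4 (chr13:29042599-29045551, minus strand) are genes of 1 exon. The lincRNA Gm17419 runs across Sox4 on the opposite strand, and because no use of strand in counting is stated, reads of these genes cannot be told apart. Zic2 (chr14:122874606-122879550, plus strand) and Zic5 (chr14:122858382-122864880, minus strand) are neighbours that point away from each other, with 9725 bases between them.

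RefSeq promoter windows (GRCm38.p6, 250 bases before to 50 after a start) were available for Fgf5, Sox4, Zic5 and 4 starts of Otx2, that is for 4 of the 6 genes. Pou3f1 and Zic2 have no window in the table used. Whether the 4 Otx2 starts lie within its expression entry was not checked. Because several of the genes moved together, the windows were searched on both strands for the letters of promoter elements and of the binding motifs of OTX (TAATCC), POU octamer (ATGCAAAT), SOX (AACAAT) and TCF/LEF (CTTTGA) factors. The matches before a start are shown for Otx2 and for the 2 upstream-most in Sox4, with the match in capitals and each sequence on the strand of its gene.
Otx2, OTX letters, chr14:48665303-48665332: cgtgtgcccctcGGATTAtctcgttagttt
Otx2, TATAAA, chr14:48667819-48667848: gataagaaggagTATAAAggaagaagaaaa
Otx2, CCAAT, chr14:48667561-48667590: tctctccctgccATTGGttggagagtttgc
Sox4, CCAAT, chr13:28953853-28953882: tttgctctgtaaATTGGaatgaggtcagat
Sox4, CCAAT, chr13:28953786-28953815: tcgggttccaagCCAATgggaaggacgggg

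The OTX letters were held by 1 of the 4 Otx2 windows, 211 bases before its start, against 7.06% of all 32851 windows. CCAAT occurred 4 times in the Sox4 window and once in an Otx2 window, and 37.4% of all windows hold it. TATAAA, held by 13.6% of all windows, occurred in an Otx2 window and in the Fgf5 window after the start. The octamer (1.74% of all windows), the SOX letters (10.7%) and the TCF/LEF letters (16.0%) were in none of the 7 windows, which says only that these letters are not there. The Fgf5 window was 68.3% G and C and the Zic5 window 62.7%, with the median of all windows at 52.7%. The Sox4 window was at 52.0% and those of Otx2 between 41.7% and 53.7%. None of these elements is shared by all 4 genes.

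In undifferentiated cells the H2AZ-AP3 library had the lowest level of 5 of the 6 genes, as in 36.8% of entries with a mean of at least 1 RPKM. At D3 the lines lay within 1.5-fold of each other for all 6 genes, as they did for 82.2% of these entries. Zic2, Fgf5, Otx2 and Zic5 were lower in H2AZ-AP3 than in H2AZ WT at D0 by 6.21-fold, 5.11-fold, 3.07-fold and 2.52-fold. The Fgf5 ratio rests on about 7 reads in H2AZ-AP3, and with a pseudocount of 1 RPKM its log2 change was -0.48, inside 1.5-fold. Pou3f1 and Sox4 did not pass 1.5-fold. In H2AZ-AP3 all 6 genes were higher at D3 than at D0, by between 1.53-fold for Sox4 and 52.2-fold for Fgf5, for which a pseudocount of 1 RPKM gave 2.56 on the log2 scale in place of 5.69. In each of the 6 genes all 3 D3 levels lay above all 3 D0 levels, as in 19.0% of the 11842 entries with a mean of at least 1 RPKM. Fewer cells that express a gene and less RNA per cell cannot be told apart in bulk RNA.

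**Figure D1:**
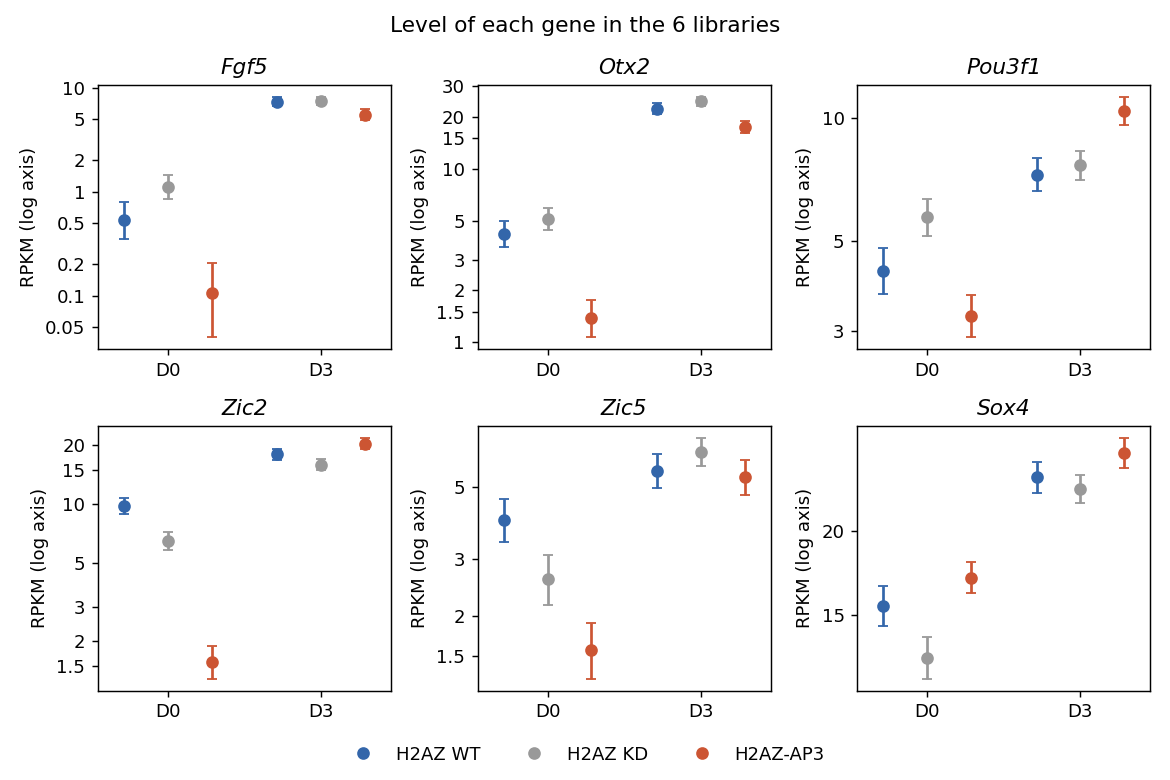
Level of each gene in RPKM (log axis) in the 6 libraries, grouped by D0 and D3; points are libraries coloured by line, and bars are approximate 95% counting intervals. At D0 the H2AZ-AP3 point is the lowest for every gene but Sox4, and all D3 points lie above all D0 points.

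Fgf5, the ligand of the group, was the least abundant gene at D0 and moved over the widest range. It stood at 0.539 RPKM in H2AZ WT (0.348 to 0.793), 1.11 RPKM in the library labelled H2AZ KD (0.853 to 1.45) and 0.106 RPKM in H2AZ-AP3 (0.0399 to 0.205) at D0. These levels rest on about 25, 58 and 7 reads. At D3 it stood at 7.34, 7.45 and 5.51 RPKM in the same order of lines. The 3 D0 intervals did not overlap, and they lay below all D3 values. At D3 the intervals of H2AZ WT and H2AZ KD overlapped, while H2AZ-AP3 was lowest. The highest D0 level was 10.6 times the lowest, against 1.35 times at D3.

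Otx2, the transcription factor that directs the move out of naive pluripotency, followed the same order of libraries as Fgf5. At D0 it was at 4.22 RPKM in H2AZ WT (3.53 to 4.98), 5.14 RPKM in H2AZ KD (4.43 to 5.95) and 1.37 RPKM in H2AZ-AP3 (1.07 to 1.75). At D3 it was at 22.3, 24.6 and 17.5 RPKM. The intervals of H2AZ WT and H2AZ KD overlapped on both days, and that of H2AZ-AP3 lay below both. The highest level at D0 was 3.74 times the lowest, against 1.41 times at D3.

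Pou3f1, a POU-domain factor, differed less between the lines and in an order that changed with the day. At D0 it was at 4.22 RPKM in H2AZ WT (3.70 to 4.80), 5.70 RPKM in H2AZ KD (5.13 to 6.34) and 3.27 RPKM in H2AZ-AP3 (2.90 to 3.68). At D3 it was at 7.26, 7.65 and 10.4 RPKM. The H2AZ-AP3 line thus held the lowest of the 6 values at D0 and the highest at D3. The intervals of H2AZ WT and H2AZ KD overlapped at D3.

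The zinc-finger genes Zic2 and Zic5 shared their order at D0, with H2AZ WT highest, H2AZ KD next and H2AZ-AP3 lowest. Zic2 stood at 9.76 RPKM in H2AZ WT (8.87 to 10.7), 6.51 RPKM in H2AZ KD (5.83 to 7.26) and 1.57 RPKM in H2AZ-AP3 (1.29 to 1.90). Zic5 stood at 3.95 RPKM (3.39 to 4.58), 2.59 RPKM (2.15 to 3.07) and 1.57 RPKM (1.28 to 1.89) in the same lines. None of the D0 intervals of either gene overlapped.

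At D3 Zic2 was at 18.0, 16.0 and 20.4 RPKM in H2AZ WT, H2AZ KD and H2AZ-AP3, and Zic5 at 5.60, 6.41 and 5.36 RPKM. The intervals of neighbours in the order of D3 levels overlapped for both genes, but the lowest and highest Zic2 levels, 1.28-fold apart, had separate intervals. The level of Zic2 was 2.47 times that of Zic5 in H2AZ WT at D0 and 2.51 times in H2AZ KD, but the genes were level, at a ratio of 1.00, in H2AZ-AP3. At D3 the ratio was 3.22, 2.49 and 3.81. The H2AZ-AP3 line therefore had the lowest ratio of the 6 libraries at D0 and the highest at D3.

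Sox4 had the highest mean level of the 6 genes, 19.7 RPKM over all libraries, and the narrowest range on either day. It stood at 15.5 RPKM in H2AZ WT (14.5 to 16.6), 13.0 RPKM in H2AZ KD (12.1 to 13.9) and 17.0 RPKM in H2AZ-AP3 (16.2 to 17.9) at D0. At D3 it stood at 24.0, 23.0 and 26.0 RPKM. It was the only one of the genes for which H2AZ-AP3 was not the lowest D0 library, and its D0 levels spanned 1.31-fold.

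Libraries were compared by log2 changes of RPKM, where a gene counted as changed past 1.5-fold (0.58 on the log2 scale). With 1 library per line and day, an effect of the mutant cannot be told apart from one of the sorted pool or the library. In H2AZ-AP3 against H2AZ WT at D0, 4 of the 6 genes were lower and 0 higher. Of all entries 13.9% were lower past this threshold, and of entries with at least 1 RPKM in either library 6.07% were. Fgf5 did not reach 1 RPKM in these libraries, which leaves 3 of 5 genes lower under that filter. The log2 changes were -2.34 for Fgf5 (-3.89 to -1.19), -1.62 for Otx2 (-2.06 to -1.18), -2.63 for Zic2 (-2.95 to -2.33) and -1.33 for Zic5 (-1.70 to -0.98). Pou3f1 was at -0.37 (-0.62 to -0.11) and Sox4 at 0.14 (0.01 to 0.26). The median of the 6 was -1.47, and that of all entries 0.

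At D3 none of the 6 genes passed 1.5-fold between H2AZ-AP3 and H2AZ WT, where 22.1% of all entries and 10.2% of those with at least 1 RPKM did so in either direction. The nearest to the threshold was Pou3f1, at a log2 change of 0.52 (0.34 to 0.70). Fgf5 was at -0.42 and Otx2 at -0.35, with intervals below 0. Zic2 (0.18), Sox4 (0.12) and Zic5 (-0.06) were closer to 0, and the interval of Zic5 held 0 (-0.32 to 0.19).

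The library labelled H2AZ KD had a different pattern at D0, with 1 gene higher and 1 lower than in H2AZ WT. Past 1.5-fold in either direction were 19.7% of all entries and 8.02% of those with at least 1 RPKM. Fgf5 was higher, with a log2 change of 1.05 (0.36 to 1.80), and Zic5 was lower, with -0.61 (-0.95 to -0.27). Both calls ended with a pseudocount of 1 RPKM, at 0.46 and -0.46. Zic2 lay just inside the threshold, at -0.58 (-0.79 to -0.37), and the lower call of Zic5 also ended when each pair of libraries was centred on its median ratio. Pou3f1 was at 0.43, Otx2 at 0.28 and Sox4 at -0.25. At D3 0 of the 6 passed 1.5-fold, against 20.7% of all entries and 8.59% of those with at least 1 RPKM, and all lay between -0.18 for Zic2 and 0.19 for Zic5.

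Set against the library labelled H2AZ KD at D0, H2AZ-AP3 was lower for 5 of the 6 genes, against 13.5% of all entries and 6.74% of those with at least 1 RPKM that were lower. Fgf5 was at -3.39 (-4.88 to -2.37), Zic2 at -2.05, Otx2 at -1.90, Pou3f1 at -0.80 and Zic5 at -0.72. The call of Zic5 ended with a pseudocount of 1 RPKM, at -0.48. Sox4 was the exception, at 0.39 (0.27 to 0.52). At D3 0 of 6 passed, where 22.7% of all entries and 11.3% of those with at least 1 RPKM did in either direction, and the genes lay between -0.49 for Otx2 and 0.44 for Pou3f1. These comparisons share libraries with those against H2AZ WT.

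**Figure D2:**
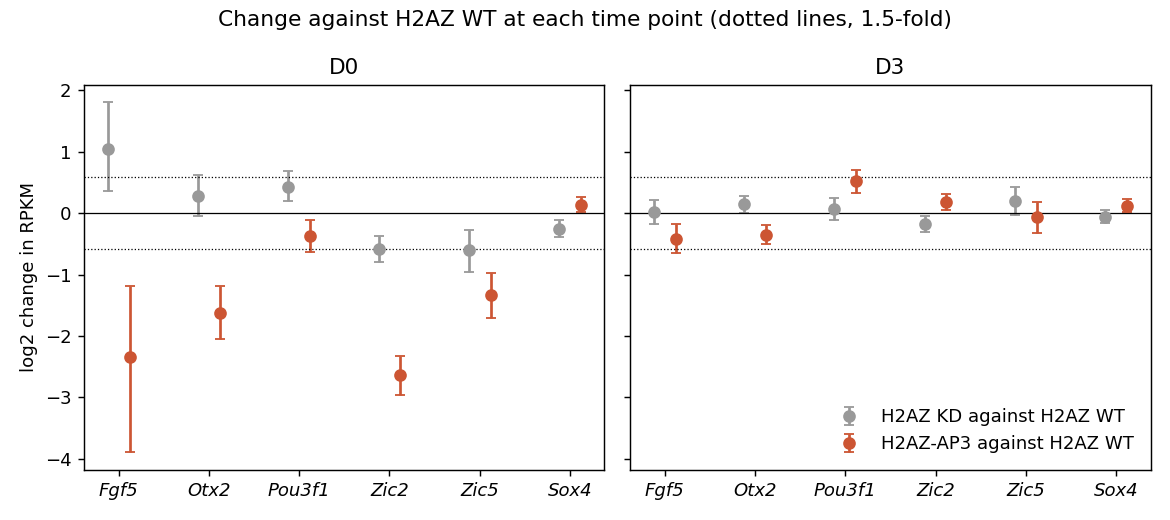
Log2 change in RPKM of each gene against H2AZ WT at D0 (left) and D3 (right), in the library labelled H2AZ KD and in H2AZ-AP3; bars are approximate 95% counting intervals and dotted lines mark 1.5-fold. At D0 4 H2AZ-AP3 points lie below the lower line, and at D3 no point passes either line.

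Markers of other cells also differed between the D0 libraries. In H2AZ-AP3 against H2AZ WT 11.1% of all entries were higher and 13.9% lower, or 7.79% and 6.07% of those with at least 1 RPKM. Of 8 extraembryonic endoderm markers, 6 were higher past 1.5-fold, and Afp and Ttr were listed at 0 in both libraries. Their summed level was 17.3 RPKM in H2AZ WT, 22.5 RPKM in H2AZ KD and 50.0 RPKM in H2AZ-AP3 at D0, and between 80.1 and 198 RPKM at D3. Of 8 fibroblast markers, as carried by feeder cells, 6 were higher and 1 lower in H2AZ-AP3 at D0. They summed to 29.2 RPKM in H2AZ WT, 25.3 RPKM in H2AZ KD and 50.3 RPKM in H2AZ-AP3, with Lum at 0 in H2AZ WT and Postn at 0 in H2AZ-AP3. At D3 they summed to 10.7 to 16.5 RPKM. The 4 genes were thus lower in the library in which both marker sums were highest at D0. Otx2 is also a gene of the visceral endoderm, and the part of other cell types in these differences was not tested. Of 5 trophectoderm markers, 1 was higher and 2 were lower in H2AZ-AP3 at D0, and Elf5 was listed at 0 in all 6 libraries.

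Other genes of the formative and primed epiblast were described beside the 6. Of 16 such genes, 2 were lower and 1 was higher in H2AZ-AP3 than in H2AZ WT at D0, with a median log2 change of -0.21, counts at or below the shares of all entries (13.9% lower and 11.1% higher). Singled out after their values were seen, the lower genes were Lef1, a nuclear partner of β-catenin (-1.98), and Grhl2, an epithelial transcription factor (-0.71), and the higher gene was Etv4, an ETS factor induced by FGF signalling (1.09). Lef1 was at 0.830 RPKM in H2AZ WT and 0.210 RPKM in H2AZ-AP3. Of the 14 with at least 1 RPKM in either library, 1 was lower and 1 higher (6.07% and 7.79% of all such entries). Among the most abundant of the list were Utf1 (0.00), Etv5 (-0.04) and the de novo DNA methyltransferase gene Dnmt3b (-0.15). Against the library labelled H2AZ KD at D0, 6 of the 16 were lower in H2AZ-AP3 and 1 was higher, with a median of -0.40, where 13.5% of all entries were lower and 13.5% higher. At D3 4 of the 16 were higher in H2AZ-AP3 than in H2AZ WT and 0 lower, with a median of 0.28, where 10.4% of all entries were higher and 11.7% lower (4.20% and 5.98% of those with at least 1 RPKM).

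Genes of the naive state included some that were lower in H2AZ-AP3 at D0. Of 12 listed naive genes 10 were found by symbol, and 4 of these were lower and 0 higher, with a median of -0.31, where 13.9% of all entries and 6.07% of those with at least 1 RPKM were lower. At D0 Klf5 was at 0.23, and among the most abundant of the list Klf2 was at -1.59, Klf4 at -0.88, Zfp42 (Rex1) at -0.06 and Esrrb at -0.06. Klf2 and Klf4 are Krüppel-like factors of naive ESCs. The other lower genes, singled out after their values were seen, were Dppa3 (-1.19) and Prdm14 (-0.88). At D3 the counts were again 4 lower and 0 higher, with a median of -0.33, against 11.7% of all entries and 5.98% of those with at least 1 RPKM that were lower. Of 5 genes shared by the pluripotent states, Sox2 was lower at D0 (-0.80), and Pou5f1, Tdgf1, Lin28a and Sall4 did not pass 1.5-fold.

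**Figure D3:**
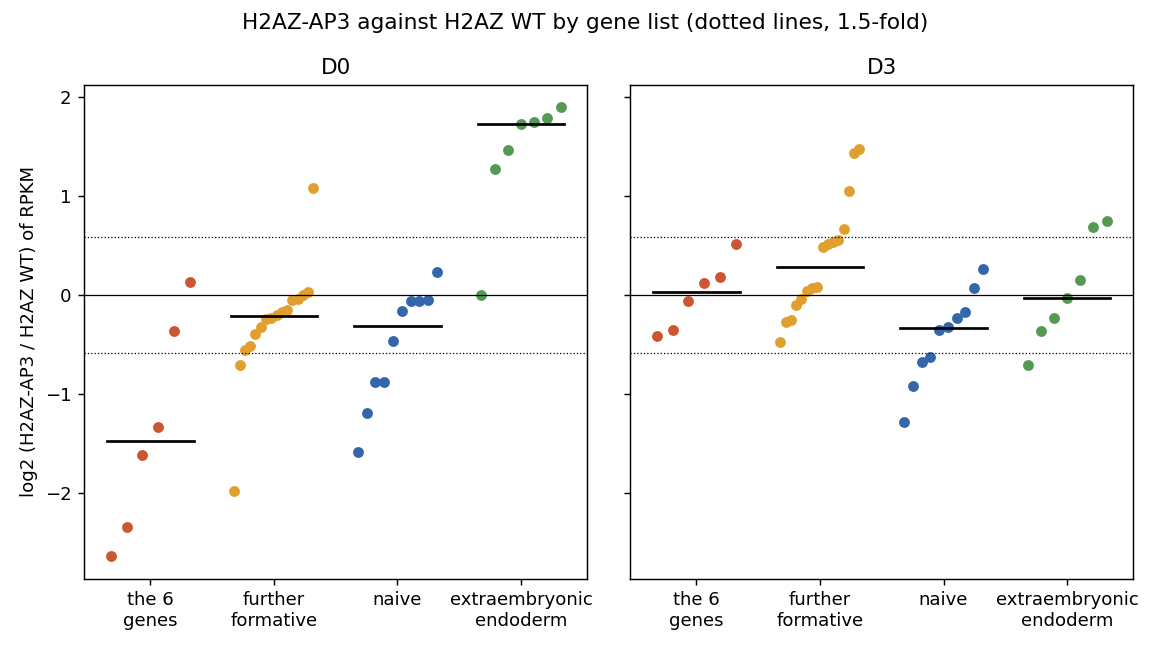
Log2 change in RPKM between H2AZ-AP3 and H2AZ WT at D0 (left) and D3 (right) for the 6 genes, the 16 further formative and primed genes, the 10 naive genes and 7 extraembryonic endoderm markers with a mean of at least 1 RPKM; points are genes, sorted within a list, black lines are medians and dotted lines mark 1.5-fold. At D0 the medians are -1.47, -0.21, -0.31 and 1.73, and at D3 they are 0.03, 0.28, -0.33 and -0.03.

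Genes of the FGF pathway, in which FGF5 acts, were called in both directions at D0. Etv4, Etv5 and Fgf15 are also among the further formative and primed genes above, and Etv4 is counted as higher in both lists on both days. Of 14 listed, 2 were higher and 3 lower in H2AZ-AP3 than in H2AZ WT at D0, where 11.1% of all entries were higher and 13.9% lower. At D3 3 were higher and 0 lower, where 10.4% of all entries were higher and 11.7% lower. Fgf4, the main FGF ligand of ESCs, was at a log2 change of -0.19 at D0 and 0.24 at D3, and the feedback inhibitor gene Spry2 was at -0.29 and 0.16. The immediate early gene Egr1 was lower at D0 (-0.88) and higher at D3 (0.85). Of the ligand genes, Fgf8, singled out after its values were seen, was the furthest down beside Fgf5, at -1.65 at D0 from a level of 0.944 RPKM in H2AZ WT.

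Close relatives of the 6 genes were mostly at low levels. Of 10 family members, 4 had a mean of at least 1 RPKM. Among these Sox12 was at -0.03 in H2AZ-AP3 against H2AZ WT at D0 and Sox11 at 0.05, and Crx, an OTX-family gene, was lower at -0.60 from 1.25 to 0.823 RPKM. Zic1 did not exceed 0.322 RPKM in any library, and Otx1 did not exceed 0.517 RPKM.

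Differentiation was examined by comparing D3 with D0. The 6 genes were chosen with earlier results of these data known, and the limma model used here was added after seeing the data. Its counts are therefore not independent support. With the line as a block, limma gave a higher level at D3 for 6 of 6 genes (Benjamini-Hochberg adjusted p from 0.0013 for Otx2 to 0.042 for Pou3f1), against 5.35% of entries with a mean of at least 1 RPKM that were higher. The mean log2 rise over the lines was 3.65 for Fgf5 (SE 0.38), 2.73 for Otx2 (SE 0.25), 1.93 for Zic2 (SE 0.46), 1.16 for Zic5 (SE 0.24), 0.94 for Pou3f1 (SE 0.23) and 0.69 for Sox4 (SE 0.12). Without the H2AZ WT line the adjusted p of limma was 0.15 for Pou3f1 and 0.11 for Sox4, and without the H2AZ KD line it was 0.077 for Zic5 and 0.056 for Sox4, so that 4 of 6 genes passed in either case. In the same model H2AZ-AP3 and H2AZ WT differed in 0 of the 6 genes by adjusted p, as in 0 of all entries. At an unadjusted p under 0.05 limma gave 679 entries, among them 1 of the 6. The model averages over the days, so it cannot speak to a difference present on 1 day only.

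The size of the rise was then taken within each line. In H2AZ WT 5 of the 6 genes were higher at D3, against 14.1% of all entries and 12.4% of those with at least 1 RPKM. Their log2 changes were 3.76 for Fgf5 (3.19 to 4.42), 2.40 for Otx2 (2.14 to 2.68), 0.89 for Zic2, 0.78 for Pou3f1 and 0.63 for Sox4. Zic5, at 0.51 (0.23 to 0.79), did not pass. Fgf5 and Otx2 were the genes with the steepest rise.

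In the line labelled H2AZ KD 5 of the 6 were higher at D3, against 14.0% of all entries and 12.4% of those with at least 1 RPKM. Fgf5 was at 2.74 (2.33 to 3.14), Otx2 at 2.26, Zic5 at 1.31, Zic2 at 1.29 and Sox4 at 0.83, and Pou3f1, at 0.42 (0.23 to 0.61), did not pass. Zic5 passed 1.5-fold here and not in H2AZ WT, and Pou3f1 the other way round, and these differences between the lines were not tested.

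In H2AZ-AP3 all 6 genes were higher at D3, against 14.7% of all entries and 11.2% of those with at least 1 RPKM. Fgf5 rose by 5.69 on the log2 scale (4.73 to 7.12), Zic2 by 3.70, Otx2 by 3.67 (3.30 to 4.05), Zic5 by 1.77, Pou3f1 by 1.67 and Sox4 by 0.61. The call of Sox4 ended with a pseudocount of 1 (0.58) and after centring (0.57). The rise of 5 genes was larger in H2AZ-AP3 than in either other line, with Sox4 the exception, and 36.0% of entries with a mean of at least 1 RPKM had their largest rise there. With a pseudocount of 1 RPKM the rise of Fgf5 was 2.56 in H2AZ-AP3 and 2.44 in H2AZ WT. The rises share their libraries with the comparisons between lines at D0 and D3 and are not separate evidence. For Pou3f1 the wider rise came with both a lower D0 level (-0.37) and a higher D3 level (0.52) than in H2AZ WT.

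**Figure D4:**
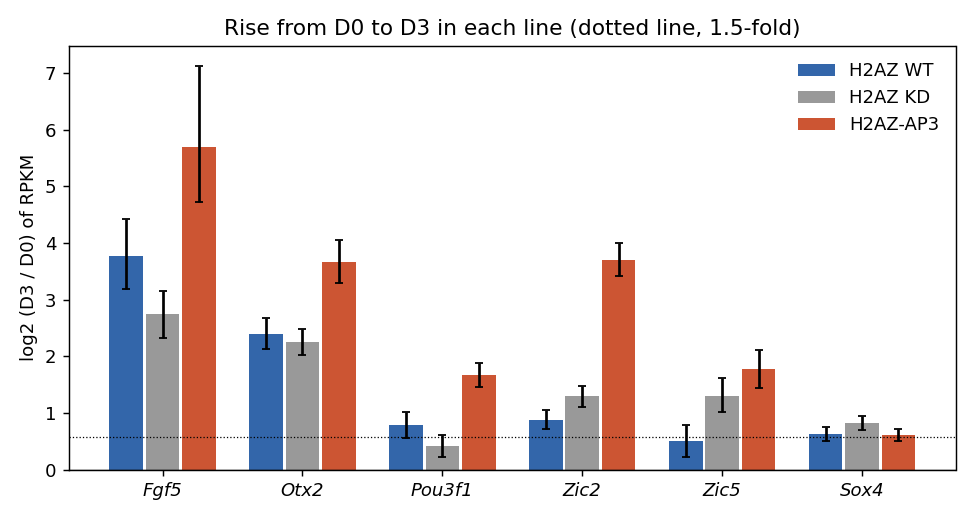
Log2 ratio of D3 to D0 RPKM for each gene, with a bar for each line and approximate 95% counting intervals; the dotted line marks 1.5-fold. The H2AZ-AP3 bar is the highest for 5 genes, from 1.67 for Pou3f1 to 5.69 for Fgf5, while Sox4 stands at 0.61 to 0.83 in the 3 lines.

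The further formative and primed genes were divided in the same comparison. In H2AZ WT 5 of 16 were higher and 1 lower at D3, in H2AZ KD 5 were higher and 2 lower, and in H2AZ-AP3 11 were higher and 1 lower. Of all entries 14.1%, 14.0% and 14.7% were higher and 16.5%, 16.2% and 16.3% lower in these lines. Dnmt3b was higher in all lines, by 1.07 in H2AZ WT, 1.38 in H2AZ KD and 1.77 in H2AZ-AP3. Of the 10 naive genes 2, 6 and 4 were lower at D3 in H2AZ WT, H2AZ KD and H2AZ-AP3, and 1 was higher in H2AZ-AP3. Klf4 was lower in all lines, by -2.79, -2.94 and -2.15. At the same time 8, 8 and 5 of the 8 extraembryonic endoderm markers were higher at D3. Their part in the D3 level of Otx2 was not tested.

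Markers of germ layers were also read. Of 6 primitive streak markers only Eomes had a mean above 1 RPKM, at 1.07 to 1.33 RPKM at D0 and 1.72 to 2.39 RPKM at D3. Of 8 neural ectoderm markers 7 were found, and 2, 0 and 3 of them were higher at D3 in H2AZ WT, H2AZ KD and H2AZ-AP3, with 1, 4 and 2 lower, where 14.1%, 14.0% and 14.7% of all entries were higher and 16.5%, 16.2% and 16.3% lower. Among the 4 neural markers with at least 1 RPKM, 1, 0 and 3 were higher and 0, 2 and 0 lower. Of all entries with at least 1 RPKM, 12.4%, 12.4% and 11.2% were higher and 10.6%, 9.86% and 13.1% lower. Tubb3 had the highest mean of them, 19.9 RPKM, and Nes, Sox1 and Pax6 followed at 6.57, 5.07 and 4.76 RPKM. All D3 levels lay above all D0 levels in 1 of these 7 genes, in 1 of the 6 primitive streak markers, in 8 of the 16 further formative and primed genes and in 8 of the 8 extraembryonic endoderm markers, against the 19.0% of entries given above.

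Across the 6 libraries the genes varied together, as a description of 6 points that share 2 days and 3 lines. On log2(RPKM + 1), Fgf5 and Otx2 had a Pearson r of 0.989 and Zic2 and Zic5 of 0.962, and the lowest r of a pair was 0.659, for Zic2 and Sox4. Among entries with a mean of at least 5 RPKM and a log2 range of at least 1, the 3 most like Fgf5 were Vegfb, Aldoa and Otx2 (r of 0.995, 0.995 and 0.989). Those most like Otx2 were Pphln1, Rhpn2 and Igf2bp2 (0.993, 0.993 and 0.991), and those most like Pou3f1 were Egln3, Tlcd1 and Ank (0.987, 0.984 and 0.981). Zic2 was followed most closely by Lefty2, a Nodal antagonist (0.986), Cadm1 (0.979) and Uchl1 (0.965). Lefty2 shared the low H2AZ-AP3 value at D0, at 22.1 RPKM in H2AZ WT, 21.3 RPKM in H2AZ KD and 3.27 RPKM in H2AZ-AP3, and stood at 52.7, 57.1 and 56.3 RPKM at D3. Zic5 was most like Six4, 2310057J16Rik and Snhg11 (0.979, 0.975 and 0.973), and Sox4 most like Pxmp3, Pgrmc1 and Mtap7d3 (0.994, 0.990 and 0.988). Each ranking was made over 806 or 807 entries, and only 1 of the 3 genes named for Fgf5 was also named with a pseudocount of 0.1.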

How the data were processed

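RNA was oligo(dT) selected and sequenced from Illumina TruSeq libraries, single-end. The authors aligned reads to mm9 with TopHat (1.4.1 in the paper, 1.14 in the submitters' processing notes) and Bowtie 0.12.7, and the deposited values are RPKM per gene, made with Cufflinks 1.3.0. The table also holds the authors' log2 ratios between lines, which were not used. The 6 genes, the gene lists and the markers were chosen with earlier results of these data known.

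Ratios of RPKM were taken on the log2 scale after adding 0.001 to both values, and changed means past 1.5-fold. As conditions were not replicated, tests were made only of D3 against D0 over the lines and of the lines over the days, with limma 3.58.1 on log2(RPKM + 0.1), line and day as terms and Benjamini-Hochberg adjustment over the 11842 entries with a mean of at least 1 RPKM. This model was added after seeing the data, and its p-values measure the spread among 3 lines, which differ by design. Named genes are the 6, H2afz, up to 4 genes per list by mean RPKM, and the 3 entries most like each of the 6. Some listed genes are named outside this rule, among them Klf5, Sall4, Otx1 and Zic1. Others were singled out after their values were seen, as stated where they appear. Depth was estimated from low RPKM values of 2646 genes with 1 GENCODE transcript over 1.5 kb, and it moved by up to 16.0% with the settings. Levels carry exact Poisson intervals and ratios Clopper-Pearson intervals (95%). Nanog, Tfcp2l1 and Map2 were not found by symbol, and a listed gene is counted but not reported by name here. Scripts were tested on simulated data. Alternatives were pseudocounts of 0.1 and 1, a filter of 1 RPKM, centring, a 2-fold threshold and summing entries per symbol. Calculations used scipy 1.17.1, pandas 2.3.3 and numpy 2.4.6 in Python 3.11.15, and plots matplotlib 3.10.9.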

Additional observations from a re-analysis of the deposited data

Results flagged for a closer look

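In 4 instances a gene that passed 1.5-fold between lines on 1 day lay on the opposite side of 0 on the other, and the difference between days was not tested. Zic2 was at a log2 change of -2.63 in H2AZ-AP3 against H2AZ WT at D0 and 0.18 at D3. Against the library labelled H2AZ KD it was at -2.05 and 0.36. Pou3f1 in H2AZ-AP3 against the library labelled H2AZ KD was at -0.80 at D0 and 0.44 at D3. Zic5 in the library labelled H2AZ KD against H2AZ WT was at -0.61 and 0.19, but its D3 counting interval held 0 (-0.03 to 0.42), and its D0 call ended with a pseudocount of 1, after centring and at 2-fold. These comparisons share libraries, and the D3 value passed 1.5-fold in none of them.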

How the results depend on the processing

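The filter, the 2-fold threshold and summing per symbol cannot alter the log2 changes of the 6 genes. Of 162 values under the other settings, 0 reversed, 148 moved by less than their counting interval, and 14 moved by more, all with a pseudocount of 1. There Fgf5 in H2AZ-AP3 against H2AZ WT at D0 was at -0.48, inside 1.5-fold. The number of the 6 genes changed in the library labelled H2AZ KD against H2AZ WT at D0 was 0 with a pseudocount of 1, 1 after centring and 1 at 2-fold. At 2-fold it was 3 for H2AZ-AP3 against the library labelled H2AZ KD at D0 and 2 for D3 against D0 in H2AZ WT. Changed entries in H2AZ-AP3 against H2AZ WT at D0 were 25.0% of all, 4.78% with a pseudocount of 1 and 13.9% with the filter at 1 RPKM. D3 against D0 over the lines, added after seeing the data, gave 6 of 6 genes higher with pseudocounts of 0.001 and 1 and without the block. Leaving out a line gave 4 to 6: 4 without H2AZ WT, 4 without H2AZ KD and 6 without H2AZ-AP3. No paired analysis was possible between lines on a single day because each condition has 1 library. At D0 Fgf5 had about 7 to 58 reads.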
